A study of Mus musculus with 12 samples.

Results

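The public CDR3s of splenic CD27hi CX3CR1- CD8+ T cells were CDR3β amino acid (AA) sequences that recurred in every one of 3 CD27hi CX3CR1- libraries. They were selected on measured presence: a sequence had to appear in a productive (in-frame, without stop codon) rearrangement of all 3 libraries. It also had to be written by fewer than 5 distinct nucleotide rearrangements in each experiment after its 4 libraries were pooled. By this rule 2149 of the 100694 distinct CDR3s of these libraries were public, or 2.13%, against 139710 distinct productive CDR3s in all 12 libraries. A further 886 CDR3s were in all 3 libraries but had 5 or more nucleotide entries in an experiment. The remaining 8978 were in 2 libraries and 88681 in 1.

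The 12 libraries came from female C57BL/6 mice bearing MC38, a mouse colon adenocarcinoma line, and every mouse had received anti-CTLA-4 Ab and anti-PD-L1 Ab. No untreated or tumor-free group is among these libraries, and the labels give no genotype beyond the strain. In each of 3 experiments, here called A, B and C, CD27lo CX3CR1-, CD27hi CX3CR1- and CX3CR1+ cells were sorted from spleens by flow cytometry, and CD8+ tumor-infiltrating lymphocytes (TILs) were taken by CD8a positive selection. The labels call the first pair of subsets CX3CR1 low and the CX3CR1+ subset CX3CR1 high. The mice of an experiment were treated as pooled in each of its libraries, so that a CDR3 found in 3 libraries recurred between groups of mice and not necessarily between single animals. Only rearranged TCRβ genes in genomic DNA were read, so the sorted subsets could not be checked against marker genes.

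A CDR3β is the loop of the T cell receptor that is formed where V, D and J segments are joined. During joining, the segment ends are trimmed, and terminal deoxynucleotidyl transferase adds untemplated bases, here called N insertions. Junctions with few N insertions stay close to the germline, and such sequences are known to be made again and again in different animals. CD27 is a costimulatory receptor of naive and memory T cells, and CX3CR1, the fractalkine receptor, marks differentiated effector CD8+ T cells.

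The rearrangements below show 3 ways in which public CDR3s were written. The first set is the public CDR3 with the highest mean share in TILs, a 15-residue sequence of TCRBV17-01 (chr6:41163092-41163556 in GRCm38, on the V segment) and TCRBJ02-02 (chr6:41542957-41543007). Its rearrangements used TCRBD02-01 (chr6:41542163-41542176). Capitals mark the 2 positions at which its 4 rearrangements differed, and each line is the 87-base read from 5′ to 3′.
TCRBV17-01 variant 1: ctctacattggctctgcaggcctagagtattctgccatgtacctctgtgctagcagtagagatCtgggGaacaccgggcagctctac
TCRBV17-01 variant 2: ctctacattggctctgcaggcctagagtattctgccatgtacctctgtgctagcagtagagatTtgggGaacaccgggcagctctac
TCRBV17-01 variant 3: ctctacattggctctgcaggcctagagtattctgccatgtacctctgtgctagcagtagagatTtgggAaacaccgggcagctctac
TCRBV17-01 variant 4: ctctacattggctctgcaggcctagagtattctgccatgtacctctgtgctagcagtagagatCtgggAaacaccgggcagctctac

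The second set is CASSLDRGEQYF in its main V gene, TCRBV16-01 (chr6:41151791-41152230), the other public CDR3 that was expanded in more than 1 experiment. Its 3 most abundant rearrangements with TCRBV16-01 are shown because each was the main one of a different CX3CR1+ library, and capitals mark the 4 positions that differed among its 4 most abundant rearrangements.
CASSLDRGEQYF, experiment A: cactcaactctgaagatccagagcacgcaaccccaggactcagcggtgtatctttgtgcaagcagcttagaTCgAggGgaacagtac
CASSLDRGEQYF, experiment B: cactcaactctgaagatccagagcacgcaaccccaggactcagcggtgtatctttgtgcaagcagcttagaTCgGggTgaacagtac
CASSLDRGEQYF, experiment C: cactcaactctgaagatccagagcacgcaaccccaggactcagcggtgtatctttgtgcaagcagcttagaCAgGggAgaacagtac

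The third set is public CDR3s written without any N insertion and found as the same nucleotide sequence in all 3 CD27hi CX3CR1- libraries. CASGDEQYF uses TCRBV13-02 (chr6:41121396-41121832) with TCRBJ02-07 (chr6:41543810-41543856), and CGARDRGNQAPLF uses TCRBV20-01 (chr6:41188273-41188977) with TCRBJ01-05 (chr6:41535084-41535133). Capitals mark the CDR3 as far as the read reached.
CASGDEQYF: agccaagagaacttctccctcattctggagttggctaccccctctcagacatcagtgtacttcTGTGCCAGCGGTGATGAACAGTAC
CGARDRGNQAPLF: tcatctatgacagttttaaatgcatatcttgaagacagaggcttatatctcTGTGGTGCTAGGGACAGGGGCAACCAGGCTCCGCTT

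Productive templates, which estimate the number of cells carrying a rearrangement, ranged from 5893 in the TILs of experiment A to 113660 in the CX3CR1+ cells of experiment C. The CD27hi CX3CR1- libraries held 53946, 49116 and 71574 and the CD27lo CX3CR1- libraries 18378, 18180 and 21622 in experiments A, B and C. Intervals and floors below cover counting error only. The TIL libraries, which were the shallowest of each experiment, detected 42, 47 and 79 of the 2149.

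Public CDR3s held a larger share of the CD27hi CX3CR1- libraries that chose them than of CD27lo CX3CR1- or CX3CR1+ libraries, and a very uneven share of TILs. In CD27hi CX3CR1- cells their part of productive templates was 7.90% in A, 8.44% in B and 6.73% in C, and of distinct CDR3s 5.86%, 6.53% and 4.66%. These values follow from the rule and were not tested. In CD27lo CX3CR1- cells public CDR3s took 4.71%, 4.58% and 4.21% of templates. This group was the most even, with a mean of 4.50% ± 0.256 (SD, n = 3). In CX3CR1+ cells they took 3.50%, 2.76% and 2.53% of templates. Each CX3CR1+ library was below the CD27lo CX3CR1- library of its experiment, by 1.57 ± 0.320 percentage points (SD, n = 3), although with 3 pairs the exact sign-flip permutation test could not go below p = 0.25, the value it gave. In TILs the public share was 8.87% (95% Wilson interval 8.18 to 9.63), 3.80% (3.48 to 4.15) and 1.18% (1.04 to 1.33) in experiments A, B and C. TILs of experiment A were thus above and TILs of experiment C below every splenic CX3CR1- library.

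The TIL differences between experiments rested largely on the 15-residue TCRBV17-01 CDR3. It alone held 7.25% of TIL templates in experiment A and 2.63% in experiment B, but 0.0143% in experiment C. Without it, the public share of TILs was 1.63%, 1.17% and 1.16%, with a mean of 1.32% ± 0.266 (SD, n = 3). In CX3CR1+ cells the share without it was 2.63% ± 0.348 and in CD27lo CX3CR1- cells 4.46% ± 0.222 (SD, n = 3). Across CD27lo CX3CR1-, CX3CR1+ and TIL libraries, the share in CD27lo CX3CR1- cells minus the mean of the other two groups was 0.725 ± 1.98 percentage points (SD, n = 3; exact permutation within experiments, two-sided p = 0.704). Without the TCRBV17-01 CDR3, an alternative chosen after seeing the data, it was 2.48 percentage points, given without a test because the sequence left out was picked for its size in TILs. The libraries compared also counted toward the limit on nucleotide entries, so the rule partly shaped the shares that were tested. The direction was not stable: the difference was -5.59 points with any number of nucleotide entries, -1.92 with V and J gene in the definition and -0.0919 without experiment C.

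As a share of distinct CDR3s, which counts each sequence once whatever its clone size, public CDR3s lay between 3.23% and 4.53% in each of the 9 libraries in which presence was not required. They made up 4.13% ± 0.130 in CD27lo CX3CR1- cells, 4.10% ± 0.381 in CX3CR1+ cells and 3.45% ± 0.374 in TILs (SD, n = 3). CD27lo CX3CR1- cells minus the mean of the other two groups was 0.355 ± 0.231 percentage points, above 0 in 3 of 3 experiments (exact permutation p = 0.333). This difference was -1.51 with any number of nucleotide entries and -0.0183 with V and J gene in the definition. The limit on nucleotide entries counted these libraries as well, so this test too used values that the rule had partly shaped. With every library drawn down to 5893 templates, the shares of distinct CDR3s were 4.43%, 4.35% and 3.47% in the same order.

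**Figure D1:**
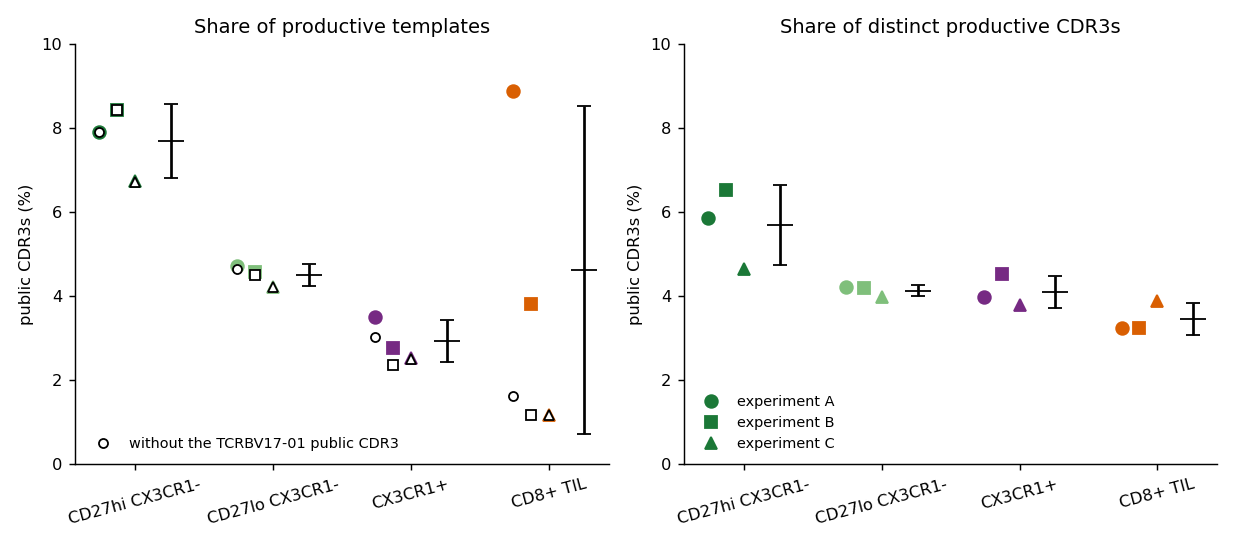
Share of productive templates (left, %) and of distinct productive CDR3s (right, %) that were public, with 1 point per library (circle, square and triangle for experiments A, B and C) and the mean ± SD of 3 libraries beside them. Open symbols leave out the 15-residue TCRBV17-01 public CDR3, and without it the TILs of experiment A fall from 8.87% to 1.63%.

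Public CDR3s had fewer N insertions than the other CDR3s of the same library in all 12 libraries. In the 9 libraries of the other groups, which the rule used only for the limit on nucleotide entries, rearrangements of public CDR3s carried a mean of 1.78 N insertions against 3.55 in the others. The difference averaged over an experiment's libraries was -1.83, -1.78 and -1.69 for A, B and C, a mean of -1.77 ± 0.0752 nucleotides (SD, n = 3). It was below 0 in 9 of 9 libraries, between -2.15 and -1.57. Public CDR3s of these libraries are parts of the list chosen in CD27hi CX3CR1- cells, so the 9 values are not independent of that choice. The exact sign-flip permutation test over 3 experiments gave p = 0.25, the smallest it can give. In the CD27hi CX3CR1- libraries the means were 2.02 and 3.58. Rearrangements with no N insertion at all were 26.0% of public and 8.70% of other rearrangements in the 9 libraries, and 21.1% against 8.05% in CD27hi CX3CR1- cells.

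Counted once each, public CDR3s were also shorter. Over the 9 libraries their mean length was 13.4 AA against 14.0 AA, a difference of -0.598 ± 0.0870 AA (SD, n = 3 experiments; exact sign-flip permutation p = 0.25). All 9 libraries showed this direction, from -0.804 to -0.143. Length is fixed by the AA sequence, and the list of public CDR3s was chosen in the CD27hi CX3CR1- libraries. The 9 libraries therefore measure parts of that list again and are not an independent test. Weighted by templates the difference was -0.140 AA (exact sign-flip permutation p = 0.5), with -0.199, 0.0777 and -0.298 AA in experiments A, B and C, and in TILs the public templates were longer, by 0.519, 0.937 and 0.0817 AA. The 2149 sequences ran from 8 to 17 residues, and 802 of them, or 37.3%, had 14. Trimming of the J segment differed by -0.436 ± 0.0466 nucleotides between public and other CDR3s (below 0 in 9 of 9 libraries, exact sign-flip permutation p = 0.25). Trimming of the V segment differed by -0.0210 ± 0.0559 nucleotides and was below 0 in 6 of 9 libraries (exact sign-flip permutation p = 1).

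**Figure D2:**
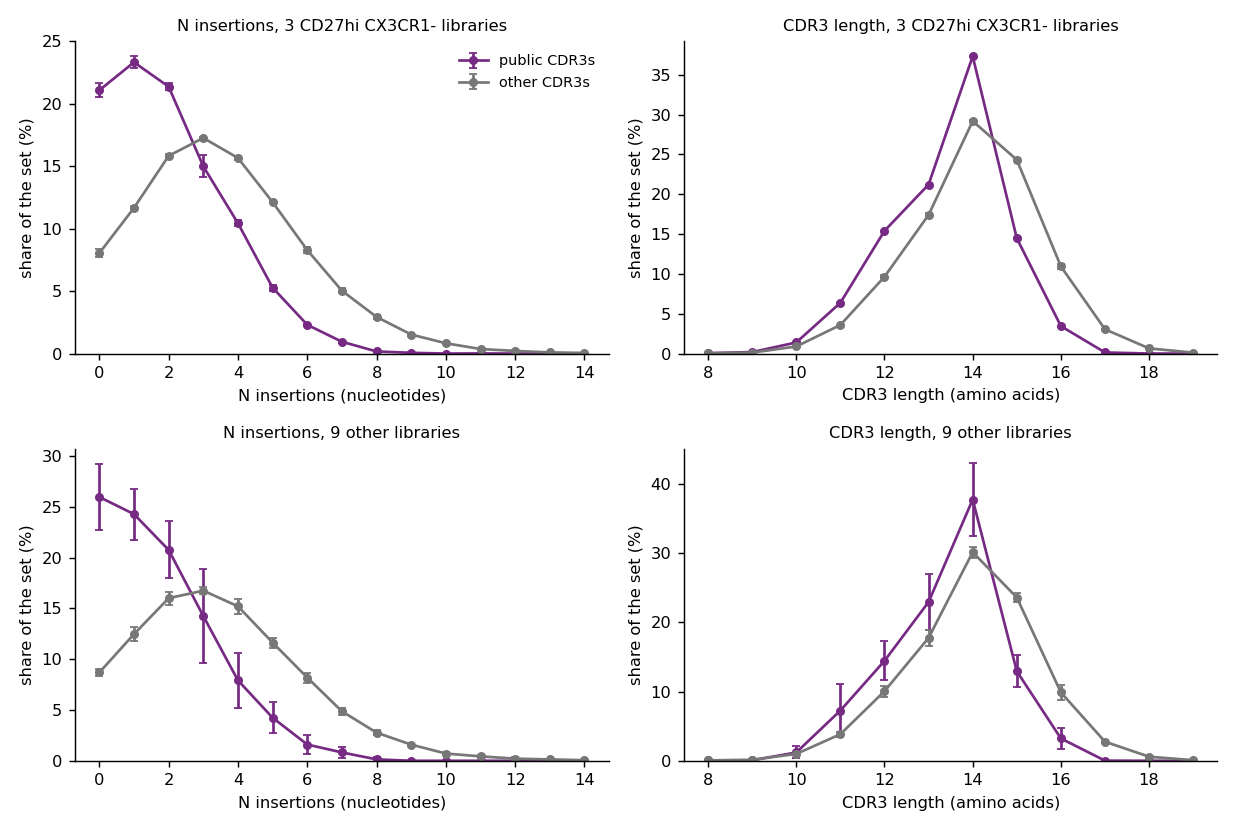
Distribution of N insertions (left, nucleotides, over distinct rearrangements) and of CDR3 length (right, AA, over distinct CDR3s) for public and other CDR3s, as a percent of each set. Points and bars are the mean ± SD over 3 CD27hi CX3CR1- libraries (top) and over the 9 other libraries (bottom), and the public curves lie to the left in every panel.

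Within CD27hi CX3CR1- cells the classes of CDR3s formed a gradient, which is a description because the classes were cut from these libraries. Mean N insertions were 4.06 ± 0.0243 in CDR3s of 1 library, 2.47 ± 0.00874 in CDR3s of 2 libraries, 2.02 ± 0.0253 in public CDR3s and 1.74 ± 0.0457 in those with 5 or more nucleotide entries (SD, n = 3). Mean lengths fell in the same order, at 14.2, 13.6, 13.4 and 13.3 AA. Out-of-frame rearrangements, which encode no receptor, carried 3.93, 3.89 and 3.94 N insertions in the 3 CD27hi CX3CR1- libraries.

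The recurrence of public CDR3s was mostly one of AA sequence and less of nucleotide sequence. Of the 2149, 1495 (69.6%) had different nucleotide rearrangements in each CD27hi CX3CR1- library, 654 (30.4%) had a rearrangement present in at least 2, and 92 (4.28%) had the same rearrangement in all 3. Nearly all, 2132, shared a J gene across the 3 libraries, while 542 (25.2%) shared a V gene. The same CDR3 was therefore often read from different V genes, and 301 public CDR3s kept 1 V gene over the 12 libraries. Recurrent rearrangements had fewer N insertions: the mean was 2.20 in the 8044 found in 1 CD27hi CX3CR1- library, 1.16 in the 652 found in 2, and 0.798 in the 94 found in 3. More than a single route in the germline ends was visible in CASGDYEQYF, whose main rearrangements with TCRBV13-02 carried no N insertions and differed at 2 positions.

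The sequences were clearly biased at their ends, where V and J segments write the residues. CASS opened 1772 public CDR3s (82.5%) against 66.9% of CDR3s found in 1 CD27hi CX3CR1- library. EQYF, which TCRBJ02-07 encodes, closed 550 (25.6%) against 18.8%, and DYTF, the end of TCRBJ01-02, closed 198 (9.21%) against 6.61%. Between the first 3 and last 3 residues, serine made up 17.8% of public and 14.9% of single-library residues. This stretch still holds the last serine of CASS, so the serine difference repeats in part that of CASS. Arginine was at 5.14% against 6.55% and alanine at 5.80% against 6.72%.

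Of 22 V genes, 9 were used more and 11 less by public than by other CDR3s in all 3 CD27hi CX3CR1- libraries, and of 12 J genes 3 were used more and 8 less. TCRBV12-02 (chr6:41118864-41119364) wrote 8.39% of public and 5.48% of other rearrangements in these libraries, a difference of 2.91 ± 0.861 percentage points (SD, n = 3). TCRBV12-01 (chr6:41113567-41114067) differed by 2.85 ± 0.527 percentage points. TCRBV01-01 (chr6:40891296-40891885) differed by -2.53 ± 0.172 points, at 2.34% against 4.86%, and TCRBV31-01 (chr6:41557693-41558371), the V segment that lies downstream of the J segments and is joined by inversion, was nearly absent, at 0.220% against 2.28%.

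The V differences mostly kept their direction in the groups in which presence was not required. TCRBV12-02 was higher in public CDR3s by 3.71 ± 0.359 points in CD27lo CX3CR1- cells, 3.57 ± 1.70 in CX3CR1+ cells and 5.50 ± 1.75 in TILs, in 9 of 9 libraries. TCRBV01-01 and TCRBV31-01 were lower in 9 of 9 libraries. TCRBV12-01 was higher in all but the TILs of experiment B. With 3 experiments these differences were given without a test, and they concern AA sequences of the same list.

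Among J genes, TCRBJ02-07 wrote 26.6% of public and 21.9% of other rearrangements in CD27hi CX3CR1- cells, a difference of 4.65 ± 0.0612 points, and was higher in 9 of 9 other libraries. TCRBJ01-02 (chr6:41534001-41534048) differed by 2.15 ± 0.0566 points. TCRBJ01-04 (chr6:41534811-41534861) and TCRBJ01-05 were lower in public CDR3s, by -1.47 ± 0.281 and -1.35 ± 0.0362 points. Outside the CD27hi CX3CR1- libraries, TCRBJ01-05 was lower in all but the CD27lo CX3CR1- library of experiment A (0.0320 points). TCRBJ01-04 was lower in all but that library (0.224 points) and the TILs of experiment C (0.680 points). TCRBJ01-02 did not hold 1 direction: in TILs it ranged from -2.36 to 18.3 points, with few public rearrangements behind each value.

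**Figure D3:**
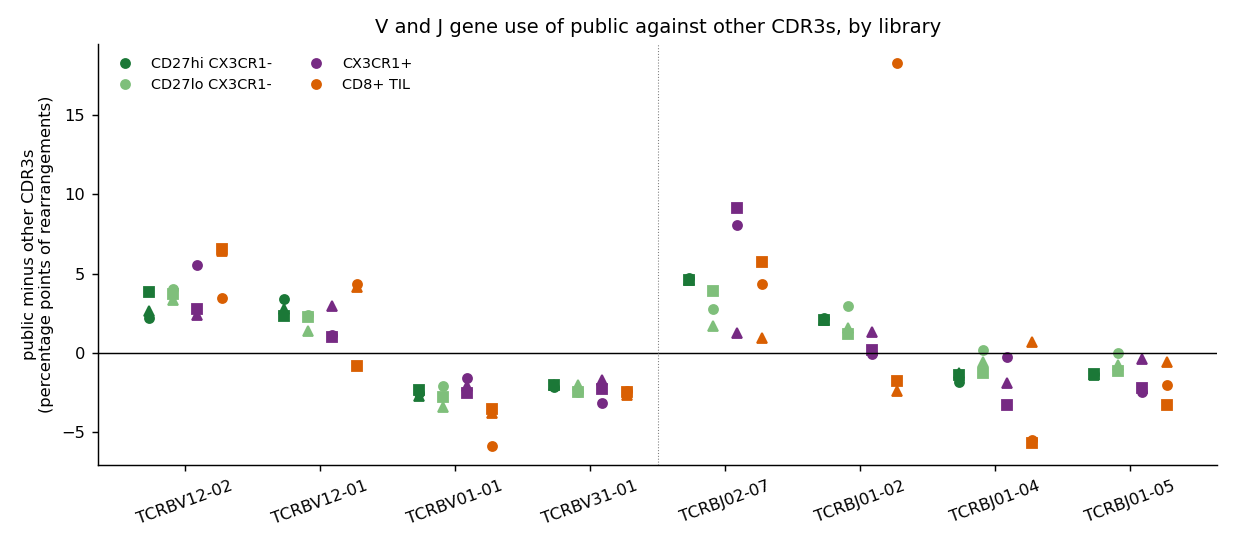
Difference in V gene (left of the dotted line) and J gene use between public and other CDR3s, in percentage points of distinct rearrangements, with 1 point per library (colour for group; circle, square and triangle for experiments A, B and C). TCRBV12-02 and TCRBJ02-07 lie above 0 and TCRBV01-01 and TCRBV31-01 below 0 in every library.

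Public CDR3s had few templates each in the CD27hi CX3CR1- subset, though more than the CDR3s of fewer libraries. Required presence in all 3 libraries favours CDR3s with more templates, so this comparison follows in part from the rule and was not tested. They had a median of 5 templates summed over the 3 libraries, a range of 3 to 34, and 361 of them (16.8%) had 1 template in each. Single-template sequences made up 46.7%, 48.8% and 40.2% of public CDR3s in experiments A, B and C, against 71.8%, 70.1% and 68.9% of the other CDR3s. Mean templates per library were 1.30 ± 0.0246 for CDR3s of 1 library, 1.67 ± 0.111 for those of 2, 2.05 ± 0.167 for public CDR3s and 5.78 ± 1.15 for those with 5 or more nucleotide entries (SD, n = 3), a limit that by itself holds down the templates of public CDR3s. Just inside the limit, the 439 CDR3s with 4 entries as their maximum had 2.94 templates per library and 1.93 N insertions. Just outside it, the 296 with 5 entries had 3.70 templates and 1.74 N insertions.

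The 5 public CDR3s with the highest mean share in CD27hi CX3CR1- cells were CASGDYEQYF, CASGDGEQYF, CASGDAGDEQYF, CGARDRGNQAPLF and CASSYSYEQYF. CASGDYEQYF held 0.0111%, 0.0204% and 0.0251% in experiments A, B and C. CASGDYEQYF was of like size in CD27lo CX3CR1- cells, at 0.0218%, 0.0110% and 0.0370%. It had 4 templates in CX3CR1+ cells of experiment A and none in the other CX3CR1+ libraries or in TILs. All 5 had no template in any TIL library, where 3 templates would have been 0.0509%, 0.0242% and 0.0143% of experiments A, B and C, and their mean shares in CD27hi CX3CR1- cells, 0.0136% to 0.0189%, were under those floors in experiments A and B.

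Outside the subset that chose them, 1458 public CDR3s (67.8%) were found in at least 1 of 9 libraries and 691 in none. CD27lo CX3CR1- libraries detected 23.6%, 23.4% and 26.5% of the 2149, CX3CR1+ libraries 12.2%, 10.9% and 18.5%, and TILs 1.95%, 2.19% and 3.68%. The CD27lo CX3CR1- libraries also held more distinct CDR3s in all (12046, 11966 and 14292) than the CX3CR1+ libraries (6573, 5191 and 10467), and the public share of distinct CDR3s, given above, was 4.13% and 4.10%. In all 3 libraries of a group, 55 were found in CD27lo CX3CR1- cells, 15 in CX3CR1+ cells and 1 in TILs, and that 1 was the 15-residue TCRBV17-01 CDR3. The counts over several libraries are given for public CDR3s only. For comparison, the other classes were detected as follows in CD27lo CX3CR1-, CX3CR1+ and TIL libraries (mean ± SD, n = 3). CDR3s of 1 CD27hi CX3CR1- library stood at 2.40% ± 0.223, 1.59% ± 0.532 and 0.365% ± 0.131. CDR3s of 2 CD27hi CX3CR1- libraries stood at 13.2% ± 0.998, 7.75% ± 2.97 and 1.83% ± 0.553. Those with 5 or more nucleotide entries stood at 61.3% ± 4.18, 43.0% ± 11.3 and 12.8% ± 4.72.

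Counted as distinct sequences, public rearrangements in the other groups matched the CD27hi CX3CR1- library of their own experiment more than those of the other experiments. Of the distinct nucleotide rearrangements of public CDR3s in a library, 18.8% ± 5.79 were in the CD27hi CX3CR1- library of the same experiment and 10.7% ± 1.19 in those of another (SD over 9 libraries, higher in 9 of 9). In TILs the values were 21.9% ± 7.62 and 10.4% ± 1.27, and in CX3CR1+ cells 20.7% ± 4.36 and 11.0% ± 0.786 (SD, n = 3). The limit on nucleotide entries counted a rearrangement shared within an experiment once, so the rule itself can favour this match. The match was not compared with that of CDR3s outside the rule, and the 9 libraries come from 3 experiments. Libraries of 1 experiment came from the same mice, and whether templates were carried over between libraries was not tested.

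Expanded public CDR3s were counted beside all expanded CDR3s of the same library. At 0.1% or more of productive templates, 6, 3 and 4 public CDR3s stood in CX3CR1+ libraries A, B and C, among 262, 235 and 397 detected (2.29%, 1.28% and 1.01%). Of all CDR3s in those libraries 2.21%, 2.29% and 1.35% reached this size. In TILs the counts were 5 of 42, 3 of 47 and 1 of 79 (11.9%, 6.38% and 1.27%), against 8.76%, 8.21% and 6.24% of all CDR3s. The public percentage was below that of all CDR3s in 4 of these 6 libraries and near it in CX3CR1+ cells of experiment A. In TILs of experiment A it was higher but rested on 5 sequences, of which the smallest had 6 templates. Each public percentage rests on 1 to 6 sequences. The differences in either direction were therefore of few sequences and were not tested. No public CDR3 reached 0.1% in a CD27hi CX3CR1- library, where 0.00273%, 0.00304% and 0.00217% of all CDR3s did. None reached it in a CD27lo CX3CR1- library, against 0.0747%, 0.0418% and 0.049%.

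In all, 18 public CDR3s were expanded in a CX3CR1+ or TIL library, 12 in CX3CR1+ and 8 in TIL libraries. Of the 18, 2 were expanded in more than 1 experiment, and 1 was expanded in CX3CR1+ cells and TILs of the same experiment. Recurrence between experiments was not counted over all expanded CDR3s, so it is not given as a trait of public ones. The 18 made 22 expansions, counted as 1 CDR3 in 1 library. In 18 of the 22 a main nucleotide rearrangement held 90% or more of the templates. The main rearrangement was also in the CD27hi CX3CR1- library of the same experiment in 12 of the 22. Its N insertions ranged from 0 to 8, with a median of 1.

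Of the 12 public CDR3s expanded in CX3CR1+ cells, 1 was expanded in 2 or more CX3CR1+ libraries. A 14-residue CDR3 of TCRBV04-01 and TCRBJ02-07 had 294 templates (0.577%) in CX3CR1+ cells of experiment B, 9 in the TILs of that experiment, and none in the other CX3CR1+ libraries. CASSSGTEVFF held 0.393% of CX3CR1+ templates in experiment A, 0 in B and 1 template in C. In CD27hi CX3CR1- cells of experiment A, where it had 13 templates, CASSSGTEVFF was the public CDR3 with the most templates. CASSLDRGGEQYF, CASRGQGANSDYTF and a 14-residue CDR3 of TCRBV13-02 and TCRBJ02-07 held 0.344%, 0.333% and 0.312% of CX3CR1+ cells in experiment A and at most 1 template in the other CX3CR1+ libraries. None of these 5 had more than 13 templates in a CD27hi CX3CR1- library.

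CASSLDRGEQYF, of TCRBV16-01 and TCRBJ02-07 in most templates, was present in CX3CR1+ cells of all experiments, at 0.0574%, 0.0726% and 0.125%. Its TIL shares were 0%, 0.234% and 0.00955%. It was not found in a CD27lo CX3CR1- library, which allows shares of up to 0.0163%, 0.0165% and 0.0139%, so each CX3CR1+ value lay above the limit of its experiment. Each CX3CR1+ library carried its own rearrangement of this CDR3, as printed above: 29 templates for A, 36 for B and 136 for C. None of these 3 rearrangements was in a CX3CR1+ library of another experiment, and that of experiment B was also in CD27hi CX3CR1- cells (3 templates) and TILs (19 templates) of its experiment.

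In TILs, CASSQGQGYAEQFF had 0, 6 and 60 templates in experiments A, B and C (0%, 0.0484% and 0.286%) and between 5 and 11 in each CX3CR1+ library. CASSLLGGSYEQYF held 0.288% of TILs in experiment A and 2 templates in experiment B. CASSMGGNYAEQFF, written with TCRBV19-01 in every template, had 15 and 16 templates (0.121% and 0.0764%) in TILs of experiments B and C and none in experiment A. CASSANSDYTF had 8 templates (0.136%) in TILs of experiment A and was in no other TIL, CX3CR1+ or CD27lo CX3CR1- library.

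**Figure D4:**
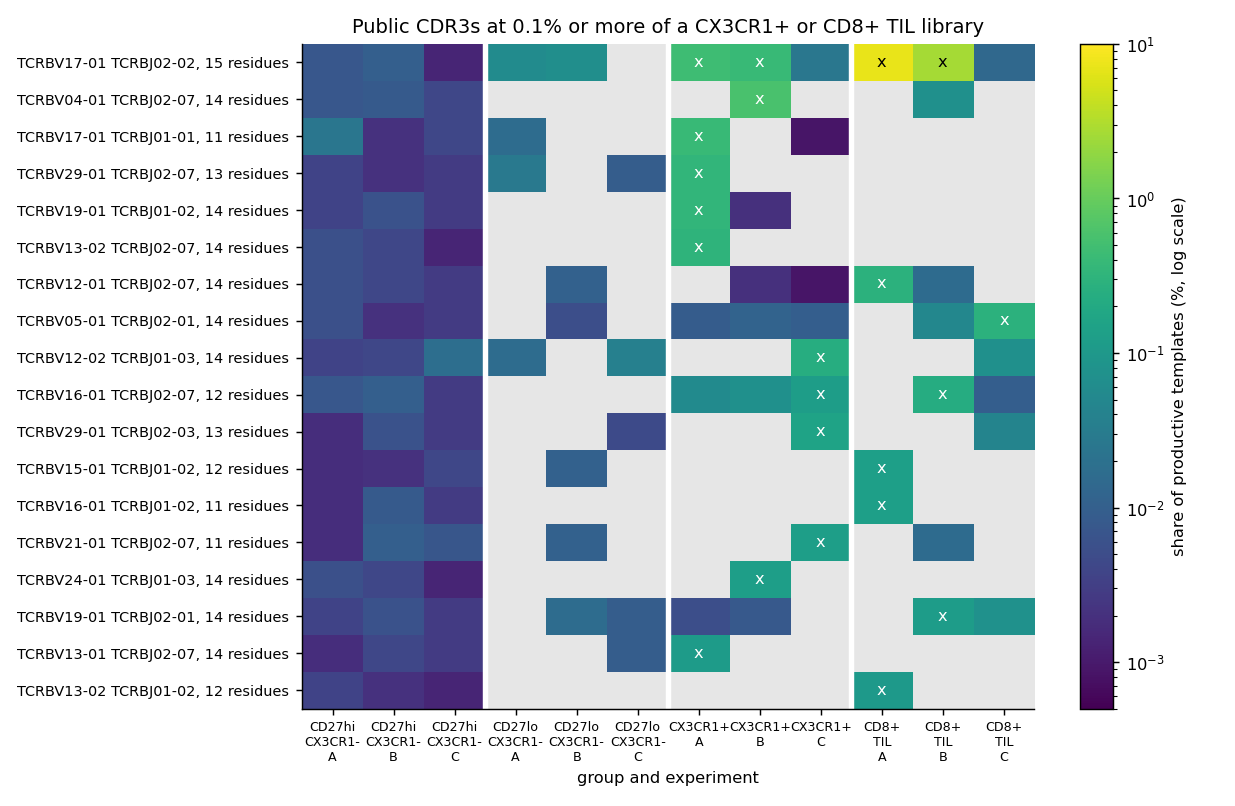
Share of productive templates (%, log colour scale) of the 18 public CDR3s at 0.1% or more of a CX3CR1+ or TIL library, in each of the 12 libraries, each named by V gene, J gene and length. Grey means not detected and a cross marks 0.1% or more; the top sequence, of TCRBV17-01 and TCRBJ02-02, is the one crossed in CX3CR1+ cells and TILs of experiments A and B.

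The 15-residue TCRBV17-01 CDR3 was low in the subset that chose it and high in TILs. It had 4, 5 and 1 templates in CD27hi CX3CR1- cells of experiments A, B and C and 11, 12 and 0 in CD27lo CX3CR1- cells. In CX3CR1+ cells it had 262, 198 and 29 templates (0.470%, 0.388% and 0.0255%). In TILs it had 427, 326 and 3 (7.25%, 2.63% and 0.0143%). It was thus large in experiments A and B and small in experiment C, and it was found in 11 of 12 libraries.

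Its 4 rearrangements did not follow the experiments alone. Variant 1 made up 417 of its templates in TILs and 194 in CX3CR1+ cells of experiment A, and it was the variant found in experiment C, with 29 templates in CX3CR1+ cells, 3 in TILs and 1 in CD27hi CX3CR1- cells. Variant 1 was not seen in CD27hi or CD27lo CX3CR1- cells of experiment A. Variant 2 made up 322 templates in TILs and 196 in CX3CR1+ cells of experiment B, with 12 in CD27lo and 5 in CD27hi CX3CR1- cells. Variant 2 also had 37 templates in CX3CR1+ cells of experiment A and none in its TILs. Variant 3 was found in experiment A only, with 31 templates in CX3CR1+ cells, 10 in TILs, 9 in CD27lo and 1 in CD27hi CX3CR1- cells, and variant 4 in experiment B only, with 2 in CX3CR1+ cells and 4 in TILs. All 4 carried 1 or 2 N insertions and an untrimmed V segment.

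Template counts were compared per CDR3 across the 9 CD27lo CX3CR1-, CX3CR1+ and TIL libraries with edgeR's quasi-likelihood test, with the experiment as a block and p-values adjusted by Benjamini-Hochberg over all 938 CDR3s that had enough templates. Only 89 of the 2149 public CDR3s were among these. For CX3CR1+ against CD27lo CX3CR1- cells no CDR3 was called in either direction (0.0% up and 0.0% down of all tested), of 27 with an unadjusted p under 0.05, 3 of them public. DESeq2 called 6 higher and 2 lower, with 1 public CDR3 in each direction. The median log2 fold change of the 89 was -0.14, against -0.25 over all tested, and 43 of the 89 were above 0.

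For TILs against CD27lo CX3CR1- cells 0.213% of the CDR3s tested were called higher (2 of 938) and 0.0% lower, and 1 of the 2 was the 15-residue TCRBV17-01 CDR3. Its log2 fold change was 5.80 (SE 1.49, edgeR adjusted p = 0.0451), and against CD27lo CX3CR1- cells it was 3.69 (SE 1.40) in CX3CR1+ cells, with an edgeR adjusted p of 0.9996. The call did not hold with TMM factors (adjusted p = 0.682), with a filter that asked for no second experiment (0.132), in DESeq2 (0.138), without the block (0.477) or without experiment A, B or C (0.960, 0.793 and 0.664). It held with a filter of 20 templates (0.0184). The log2 fold change stayed between 4.79 and 6.31 under all of these settings. The median log2 fold change of the 89 public CDR3s was -2.09, against -2.03 over all tested, and 26 of the 89 were above 0. DESeq2 called 7 CDR3s higher and 72 lower in TILs, of which 1 and 6 were public. The median dispersion of the counts over the CDR3s tested was 2.03, so that clone sizes differed widely between experiments of a group, and a lack of calls does not show that levels were alike.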

How the data were processed

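Genomic DNA was amplified with ImmunoSEQ at survey level and sequenced on an Illumina NextSeq, and the reads were turned into rearrangements by the same platform. Template counts deposited by the authors are whole numbers per nucleotide rearrangement, without normalization. V, D and J genes, N insertions, trimming and CDR3 lengths were used as deposited. Gene positions are those of RefSeq for GRCm38, the assembly of the build in the labels, matched by segment number.

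The 205925 productive rows were summed per CDR3 AA sequence, and every share is a percent of productive templates. Rows with tied V genes (18) or J genes (215) were kept as a class of their own. N insertions are the sum of the V-D and D-J junctions. Members, gene and CDR3 lists and tests were chosen with earlier results of these data known. CDR3s named are the 5 public ones with the highest mean share in CD27hi CX3CR1- cells, the 6 highest in CX3CR1+ cells, the 6 highest in TILs, those at 0.1% or more in 2 experiments, and those called by edgeR, with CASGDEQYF shown as one of the most frequent rearrangements without N insertions. The V and J genes named are the 4 of each with the largest mean difference.

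The experiment code shared by the libraries was the unit of replication and the block, as the study treated experiments as repeated measures. The higher match of distinct rearrangements within experiments is no test of this choice, since the limit on nucleotide entries can favour it. By templates, TILs of experiment A went the other way. Libraries are pools, so p-values measure the spread between pools. Permutation tests were exact and two-sided (threshold 0.05). Per-CDR3 tests used edgeR 4.0.16 with library sizes as offsets on CDR3s with at least 10 templates in the 9 libraries and in at least 2 experiments, and DESeq2 1.42.0 with poscounts size factors as an alternative. The permutation and edgeR tests were first run on simulated data, where edgeR did not recover large changes at the dispersion of these counts. Python 3.11.15, pandas 2.3.3, scipy 1.17.1 and R 4.3.3 were used. Detection floors are 3 templates, and intervals are 95% Wilson intervals.

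Alternatives varied the limit on nucleotide entries, the CDR3 definition, a minimum of 2 templates, depth (5893 templates, 100 draws; 49116 templates, 20 draws for the libraries that choose members), denominator, weighting, filters, scaling, block and experiments and, chosen after seeing the data, left out the TCRBV17-01 CDR3.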

Additional observations from a re-analysis of the deposited data

How the results depend on the processing

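The fewer N insertions of public CDR3s kept their direction under every alternative run, at between -2.12 and -1.64 nucleotides. The mean length difference stayed below 0, but weighted by templates it was -0.140 AA and below 0 in 2 of 3 experiments. Leaving out each experiment gave -1.81 to -1.73 nucleotides and -0.638 to -0.552 AA.

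The difference in template share between CD27lo CX3CR1- cells and the mean of CX3CR1+ cells and TILs (0.725 points, not past the threshold) depended on who counts as public. It was -5.59 points with any number of nucleotide entries (3035 CDR3s), -1.92 with V and J gene in the definition (1010 CDR3s), 0.695 (exact permutation p = 0.037, the smallest possible) with fewer than 3 entries (1079 CDR3s), and 2.48 without the TCRBV17-01 CDR3. The cause of these shifts was not tested. The TCRBV17-01 CDR3, which leads the TILs of experiments A and B, had 3 nucleotide entries in experiment A. The limit of fewer than 3 entries therefore left it out as well, so the 0.695 points and their p-value are not separate from its removal. Leaving out each experiment gave -0.0919 (without experiment C) to 1.83 points. For distinct CDR3s (0.355 points), the values were -1.51 with any number of entries, -0.0183 with V and J gene, and 0.798 at the smallest exact permutation p with at least 2 templates (493 CDR3s), and leaving out each experiment gave 0.232 to 0.461. With no replicate block, exact permutation gave p = 0.690 for templates and 0.25 for distinct CDR3s, and no call changed. Drawing the CD27hi CX3CR1- libraries to equal depth left 1820.9 public CDR3s on average and a template difference of 1.10 points.

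Public CDR3s at 0.1% or more numbered 12 in CX3CR1+ and 8 in TIL libraries. They were 55 and 47 with any number of nucleotide entries, a longer list (3035 CDR3s against 2149), and 28 and 16 at 0.05% or more. The share of all CDR3s is given at 0.1% only, so the counts at 0.05% are not compared with other CDR3s. Calls for CX3CR1+ against CD27lo CX3CR1- cells went from 0 in edgeR to 8 in DESeq2. For TILs they went from 2 to 79 in DESeq2 and to 0 with TMM factors, with the filter of 10 templates in any number of experiments and without the replicate block; leaving out each experiment gave 0 to 0. No other count moved by over 1.5 times. Depth limits TILs most, where the floor of experiment A was 0.0509%, and single CDR3s in pooled libraries cannot be assigned to mice.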
